A study of Canis lupus familiaris with 14 samples.

Results

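The genes described here copy DNA and mend it by recombination, and they were followed in canine osteosarcoma, an aggressive primary bone tumor, and in normal bone of the same animal. They were taken from a list of 50 genes, and a gene was kept where a supplementary table of the study paired its symbol with an Ensembl identifier. This left 35 of the 50 genes, out of 30951 genes in the count table. The 15 genes without such a pairing were MCM7, GINS2, GINS3, GINS4, RFC3, LIG1, POLA1, PRIM1, RRM1, TYMS, TIPIN, BRCA2, BLM, FANCA and XRCC2, and they were not analysed here. The tables held list the genes with the smallest p-values in the study's own comparison of tumor and bone, and all 35 genes stood among the 1999 rows held of the table ordered in that way. The pairing therefore favored genes that differ between tumor and bone, and the counts of such genes below are descriptions and not evidence about the pathway.

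Polyadenylated RNA was sequenced from 7 pet dogs, A to G, with 1 library of tumor and 1 of bone for each dog. Bone was the P2 phalanx of the amputated leg, and tumors lay in the distal radius (dogs A, C, E and F), distal femur (dog B), proximal humerus (dog D) or distal tibia (dog G), all sampled before any chemotherapy. The breeds were Golden Retriever (A and F), Rottweiler (B), Doberman Pinscher (C), Greyhound (D and G) and Great Pyranees (E). Bone RNA and tumor RNA were extracted by different methods and came from different parts of the limb, so that tissue, extraction and site cannot be told apart.

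Before a cell divides, its replication origins are licensed once: the origin recognition complex with CDC6 and CDT1 loads the ring of MCM2 to MCM7 onto DNA. In S phase CDC45 and the GINS complex turn this ring into an active helicase, polymerases held by the PCNA clamp copy both strands, and ribonucleotide reductase and thymidine kinase supply the building blocks. Forks that stall are signaled by claspin to the kinase CHEK1, and broken or crosslinked forks are repaired by homologous recombination and the Fanconi anemia pathway. Most of these genes are transcribed when cells enter S phase, so that in bulk tissue their RNA follows the share of cycling cells. In such samples, fewer cells of a type and less RNA per cell cannot be told apart.

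Total counts ranged from 22564544 to 34479429 in bone and from 18650945 to 32887213 in tumor. All 35 genes had reads in all 14 libraries, and the lowest raw count of any of them was 8, in the bone of dog E. A single gene without a paired symbol, ENSCAFG00000017018, took 29.5% of the reads in the bone and 26.3% in the tumor of dog E, against 1.83% to 17.5% of the other libraries in which it was the most abundant gene. By the study's account, the tumor of dog A and the bone of dog B had the lowest RNA integrity. No pair of libraries was identical. Levels below are normalized counts, that is, counts divided by DESeq2 size factors. Because transcript lengths were not used, levels are compared between libraries and not between genes.

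The question was which of these genes differed between a tumor and bone of the same dog, and by how much. All 35 fitted log2 fold changes were above 0, between 0.82 (POLD1) and 3.31 (CLSPN), with a median of 1.77; the median over all 27655 genes tested was -0.05. Of the 35 genes, 29 were called higher in tumor, with an adjusted p-value (FDR) under 0.05, a mean normalized count over 10 and a fold change over 2, and 0 were called lower. Over all genes tested, 1.35% were called higher by the same criteria, and among the 2267 genes with a paired symbol the share was 15.6%. With the FDR alone, 31 of the 35 genes passed, against 1.76% of all genes. The lowest tumor lay above the highest bone for 26 of the 35 genes, against 1.49% of all genes. The 6 genes not called were GINS1, GMNN, PCNA, POLE2, POLD1 and BRIP1, of which GINS1, GMNN, PCNA and BRIP1 missed the FDR threshold but passed it with the DESeq2 Wald test and with limma-voom. Each dog gave 1 library of each tissue, and the p-values measure the spread between dogs. Since the symbols came from the same contrast, nothing is read from the gap between these shares.

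**Figure D1:**
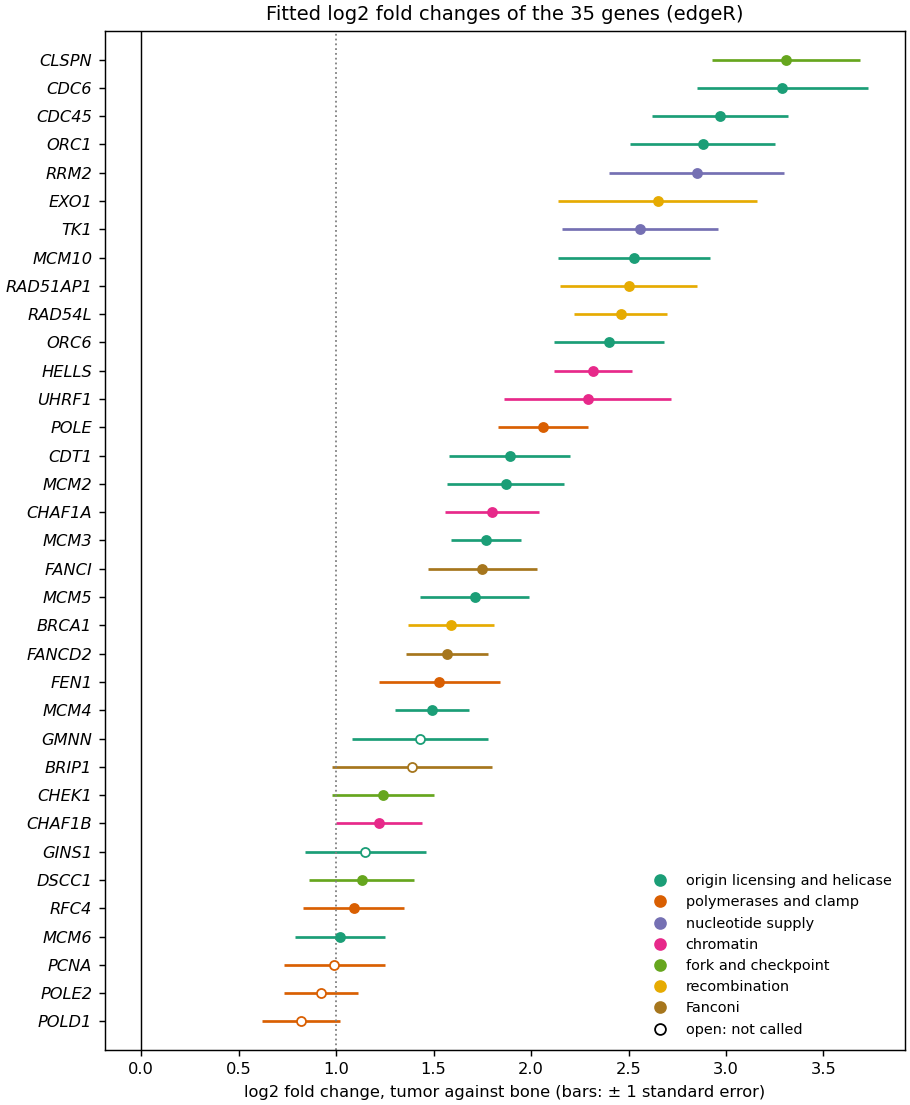
Fitted log2 fold changes (x axis) of tumor against bone for the 35 genes (y axis), colored by function, with bars of 1 standard error; open circles are the 6 genes not called, and the dotted line marks a fold change of 2. CLSPN and CDC6 lie farthest to the right at 3.31 and 3.29, and POLD1, POLE2 and PCNA lie below 1.

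Loading of the replicative helicase was represented by 13 genes, of which 11 were called higher. MCM3, a subunit of the ring, had the smallest FDR of the group. Its normalized counts ran from 431 to 551 in bone (median 461) and from 1019 to 2246 in tumor (median 1799), so the groups did not overlap. The log2 fold change was 1.77 with a standard error (SE) of 0.18, and with an FDR of 0.00205. The lowest tumor of MCM3 was that of dog E, and dog E also had the smallest difference of tumor and bone.

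The fitted log2 fold changes of the other paired subunits of the ring ran from 1.02 to 1.87, and the differences between these genes were not tested. MCM2 had a log2 fold change of 1.87, MCM5 of 1.71 and MCM4 of 1.49, and for each of them all tumors exceeded all bones. MCM4 had 560 to 880 normalized counts in bone (median 686) and 1440 to 4614 in tumor (median 1982), with an FDR of 0.00431, and the tumor of dog F was the highest. MCM6, the most abundant gene of the group in reads, rose least. Its mean was 1593 ± 248 (SD) normalized counts in bone against 3528 ± 1834 in tumor (n = 7), a log2 fold change of 1.02 ± 0.23 (SE), with an FDR of 0.0354. In each of the 7 dogs the difference of tumor and bone was larger for MCM2 than for MCM6, by 0.11 (dog E) to 1.38 (dog F) on the variance-stabilized log2 scale. The FDR of MCM6 lay between 0.0522 and 0.0955 when any single dog was left out, so that its call needed all 7 dogs.

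Several factors that load or start the ring had larger fold changes than any of its subunits, a difference between genes that was not tested. CDC6, the loader, had between 25.3 and 73.9 normalized counts in bone (median 45.1) and between 227 and 1348 in tumor (median 426). All tumors lay above all bones, with a log2 fold change of 3.29 ± 0.44 (SE), with an FDR of 0.00507. CDC45, part of the active helicase, had 50.5 ± 9.61 (SD) normalized counts in bone against 432 ± 204 in tumor (n = 7), a log2 fold change of 2.97 ± 0.35 (SE), with an FDR of 0.0033. The highest tumor for CDC45 was that of dog B, at 761. ORC1 and ORC6, subunits of the origin recognition complex, had log2 fold changes of 2.88 and 2.40, and MCM10, which helps to fire the helicase, of 2.53. For these 5 genes the groups did not overlap.

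CDT1, which brings the ring to the origin, and GMNN, its inhibitor geminin, did not move in parallel across dogs. CDT1 was called higher, with a log2 fold change of 1.89 ± 0.31 (SE), with an FDR of 0.00988, although the lowest tumor (315, dog D) lay below the highest bone (349, dog A). GMNN had between 79.6 and 142 normalized counts in bone (median 132) and between 126 and 805 in tumor (median 310). Its log2 fold change of 1.43 ± 0.35 (SE) had an FDR of 0.0502 and was not called. In dog A, CDT1 had 1367 normalized counts in tumor, the highest of the 7 tumors, while GMNN had 126, the lowest. The difference of tumor and bone was larger for CDT1 than for GMNN by 1.80 in dog A and by 1.86 in dog G, and smaller by 0.70 in dog C and by 0.49 in dog E (variance-stabilized log2 scale).

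GINS1, a subunit of the GINS complex, was also not called. Its normalized counts lay between 191 and 263 in bone (median 237) and between 164 and 1057 in tumor (median 550). Dog A was the exception among the 7 dogs: its tumor held 164 and its bone 263. The log2 fold change was 1.15 ± 0.31 (SE), with an FDR of 0.073. Without dog A the FDR was 0.0136 for GINS1 and 0.028 for GMNN. In each of the 7 dogs CDC45 differed more between tumor and bone than its partner GINS1, by 0.46 to 1.65 (variance-stabilized log2 counts) and by 0.96 to 2.82 as a log2 ratio of normalized counts.

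**Figure D2:**
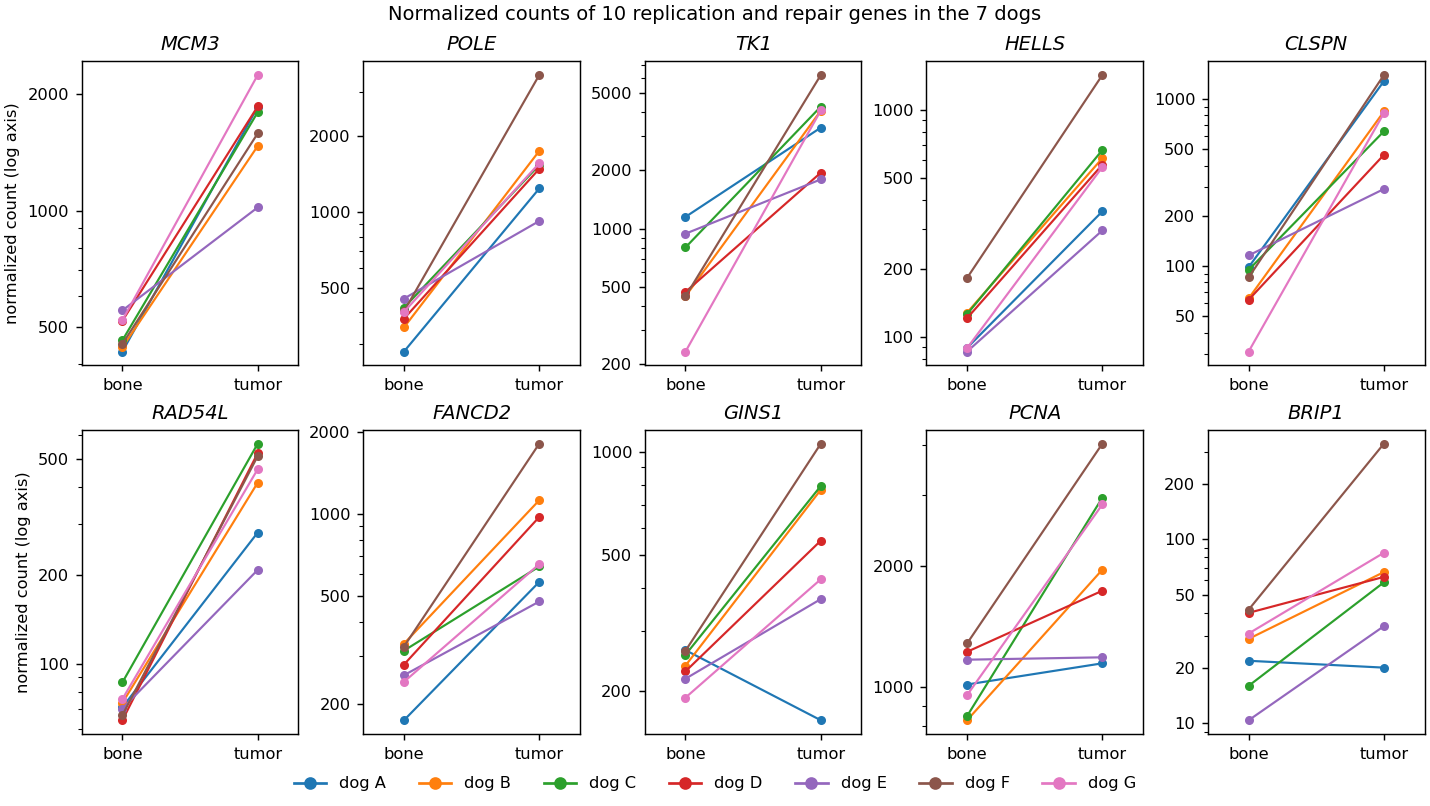
Normalized counts (log axis, each panel with its own range) of 10 genes in bone and tumor, with a line for each of the 7 dogs; the first 7 panels show the gene of smallest FDR in each functional group, and GINS1, PCNA and BRIP1 were not called. The lines rise in all dogs but dog A for GINS1 and BRIP1, and dog E has the lowest tumor for MCM3, POLE, TK1, HELLS, CLSPN, RAD54L and FANCD2.

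Polymerases and the clamp had the lowest median log2 fold change of the 7 functional groups, 1.04 over 6 genes, of which 3 were called higher. POLE, the catalytic subunit of the leading-strand polymerase, had 279 to 453 normalized counts in bone (median 401) and 922 to 3510 in tumor (median 1540). The groups did not overlap, and the log2 fold change was 2.06 ± 0.23 (SE), with an FDR of 0.0029. POLE2, the accessory subunit of the same enzyme, had an FDR of 0.0262 but a log2 fold change of 0.92 ± 0.19 (SE), and POLD1, the catalytic subunit of the lagging-strand polymerase, had an FDR of 0.0485 with a log2 fold change of 0.82 ± 0.20 (SE). Both stayed under the fold threshold. The normalized counts of POLE2 were 80.9 to 500 in bone (median 225) and 199 to 1204 in tumor (median 431), which overlapped. Those of POLD1 were 606 to 913 (median 843) and 1198 to 2295 (median 1237), which did not. The FDR of POLD1 was 0.0634 to 0.108 on leaving out any single dog, and that of POLE2 was 0.0667 to 0.0817 without dog B, C, D, E or F and 0.162 without the pairing by dog. On the variance-stabilized log2 scale POLE differed more than POLD1 in each of the 7 dogs, by 0.47 to 1.70. POLE also differed more than POLE2 in dogs A to D, F and G, while in dog E the order depended on the scale, with 0.09 there and -0.28 as a log2 ratio of normalized counts.

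PCNA, the sliding clamp, had 1047 ± 183 (SD) normalized counts in bone against 2268 ± 1059 in tumor (n = 7), and the groups overlapped. Its log2 fold change of 0.99 ± 0.26 (SE) had an FDR of 0.067 and was not called. The difference was 0.02 in dog E and 0.16 in dog A and reached 1.69 in dog C. RFC4, a subunit of the clamp loader, and FEN1, the nuclease that trims Okazaki fragments, were called with log2 fold changes of 1.09 and 1.53. Their FDR values were 0.0457 and 0.0247. The call of RFC4 needed all 7 dogs: its FDR was 0.0696 to 0.108 without dog A, B, C, D, E or G, and its log2 fold change was 0.83 without dog F. FEN1 had an FDR of 0.0501 to 0.0731 without dog B, C, F or G. RFC4 had 473 to 559 normalized counts in bone and 722 to 1229 in the tumors of dogs A to E and G, while the tumor of dog F had 3439. Over the medians of the genes in each dog, polymerases and the clamp differed less between tumor and bone than the licensing genes in 7 of 7 dogs. They were not the lowest group in every dog: the median of the fork and checkpoint genes was lower in dogs B, F and G, and that of the Fanconi genes in dogs E and G (variance-stabilized scale).

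Nucleotide supply was represented by RRM2, the regulated subunit of ribonucleotide reductase, and TK1, the S-phase thymidine kinase. RRM2 had between 156 and 608 normalized counts in bone (median 318) and between 1338 and 6038 in tumor (median 2072), a log2 fold change of 2.85 ± 0.45 (SE), with an FDR of 0.00905. The highest tumor and the lowest bone were both those of dog G. TK1 had 233 to 1152 normalized counts in bone (median 473) and 1798 to 6207 in tumor (median 4065), a log2 fold change of 2.56 ± 0.40 (SE), with an FDR of 0.00849. Neither gene overlapped between the tissues. Their levels in bone varied more than those of other genes, and TK1 was the single gene of the 35 whose SD was larger among bones (0.67) than among tumors (0.62).

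The 4 genes that handle chromatin behind the fork were all called higher. HELLS, a chromatin remodeler, had the smallest FDR of the group, and its normalized counts of 86.2 to 182 in bone and 295 to 1429 in tumor did not overlap. The log2 fold change of HELLS was 2.32 and its FDR 0.00195. UHRF1, which guides maintenance methylation of DNA, had the largest FDR of the 4, with 277 ± 68.6 (SD) normalized counts in bone against 1620 ± 1070 in tumor (n = 7), a log2 fold change of 2.29 ± 0.43 (SE), with an FDR of 0.0177. The groups overlapped because of dog A, whose bone held 298 and whose tumor 325, while the other tumors held 899 to 3639. The FDR of UHRF1 was 0.0501 without dog C and 0.0517 without dog G. CHAF1A and CHAF1B, subunits of the histone chaperone CAF-1, had log2 fold changes of 1.80 and 1.22. CHAF1B had 108 to 232 normalized counts in bone (median 170) and 227 to 1123 in tumor (median 353), with an FDR of 0.0145, and the tumor of dog F was the highest.

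Claspin (CLSPN), the adaptor between the stalled fork and CHEK1, had the largest fold change of the 35 genes. It had between 30.8 and 116 normalized counts in bone (median 85.6) and between 290 and 1398 in tumor (median 827). All tumors lay above all bones, with a log2 fold change of 3.31 ± 0.38 (SE), with an FDR of 0.0032. CHEK1 itself rose less, from 80.6 ± 12.9 to 201 ± 79.2 normalized counts, a log2 fold change of 1.24 ± 0.26 (SE), with an FDR of 0.0284. Its FDR was 0.0503 to 0.0828 on leaving out any single dog but dog D. The difference was larger for CLSPN than for CHEK1 in each of the 7 dogs, by 0.18 to 2.24 (variance-stabilized log2 counts) and by 0.04 to 3.37 as a log2 ratio of normalized counts, with the lowest value in dog E on both. DSCC1, part of an alternative clamp loader, had 126 to 239 normalized counts in bone (median 178) and 203 to 806 in tumor (median 352). The groups overlapped. Its log2 fold change was 1.13 ± 0.27 (SE), with an FDR of 0.0471. That FDR moved to between 0.0554 and 0.128 on leaving out any single dog.

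All 4 paired genes of homologous recombination were called higher, and none overlapped between bone and tumor. RAD54L, a DNA-dependent motor protein, had the smallest FDR, with 64.3 to 86.5 normalized counts in bone and 209 to 562 in tumor. The log2 fold change of RAD54L was 2.46 and its FDR 0.00195. BRCA1, the tumor suppressor that promotes resection of broken ends, had between 103 and 254 normalized counts in bone (median 200) and between 302 and 829 in tumor (median 539), a log2 fold change of 1.59 ± 0.22 (SE), with an FDR of 0.00541. EXO1, a nuclease of resection, had 45.7 ± 21.0 (SD) normalized counts in bone against 315 ± 235 in tumor (n = 7), a log2 fold change of 2.65 ± 0.51 (SE), with an FDR of 0.0193. The FDR of EXO1 was between 0.0521 and 0.0582 without dog B, D, F or G.

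Of the Fanconi genes, FANCD2 and FANCI, which form the clamp that is placed on DNA at crosslinks, were called, and the helicase BRIP1 was not. FANCD2 had 175 to 334 normalized counts in bone (median 280) and 477 to 1809 in tumor (median 654), a log2 fold change of 1.57 ± 0.21 (SE), with an FDR of 0.005. FANCI had a log2 fold change of 1.75 ± 0.28 (SE), with an FDR of 0.00865. Both were free of overlap. BRIP1 was the least counted gene of the 35, with 10.4 to 41.5 normalized counts in bone (median 28.8) and 20.1 to 332 in tumor (median 62.6). The tumor of dog F lay apart, since the other 6 tumors had 84.7 or fewer. Its log2 fold change of 1.39 ± 0.41 (SE) had an FDR of 0.0983, which was 0.262 without dog F.

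The tumors were next compared dog by dog, as differences of variance-stabilized counts of tumor and bone on the log2 scale. This scale understates the change of genes with few reads, and a dog has no replicate library, so that the values have no error. Of 12 pairs of related genes compared in this way, 4 had the same sign in all 7 dogs on this scale and by the ratio of normalized counts: MCM2 and MCM6, CDC45 and GINS1, POLE and POLD1, and CLSPN and CHEK1. For POLE against POLE2 the sign turned in dog E with the ratio. The other 7 pairs were mixed: by the ratio, the first gene differed more in 6 of 7 dogs for CDC6 against ORC6, in 5 for CDT1 against GMNN and RRM2 against TK1, in 4 for MCM2 against MCM5 and BRCA1 against BRIP1, and in 3 for FANCD2 against FANCI and HELLS against UHRF1. In 32 of the 35 genes the tumor was higher in all 7 dogs, against 4.65% of all genes tested. The exceptions were GINS1, GMNN and BRIP1, each lower in tumor in dog A, by 0.48, 0.08 and 0.04. The median difference over the 35 genes was lowest at 0.73 (dog E) and 0.89 (dog A), intermediate at 1.34 (dog D), 1.57 (dog B), 1.64 (dog C) and 1.78 (dog G), and highest at 2.25 (dog F). As log2 ratios of normalized counts, the medians were 0.93 (E), 1.46 (A), 1.61 (D), 1.88 (C), 1.98 (B), 2.24 (G) and 2.93 (F). Dog A thus lay near dog D by the ratio, and dogs B and C changed places. By the ratio of normalized counts, tumor exceeded bone more than 2-fold for 35 of the 35 genes in dog F, 22 in dog A and 17 in dog E, and for 25 to 32 genes in the other dogs.

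**Figure D3:**
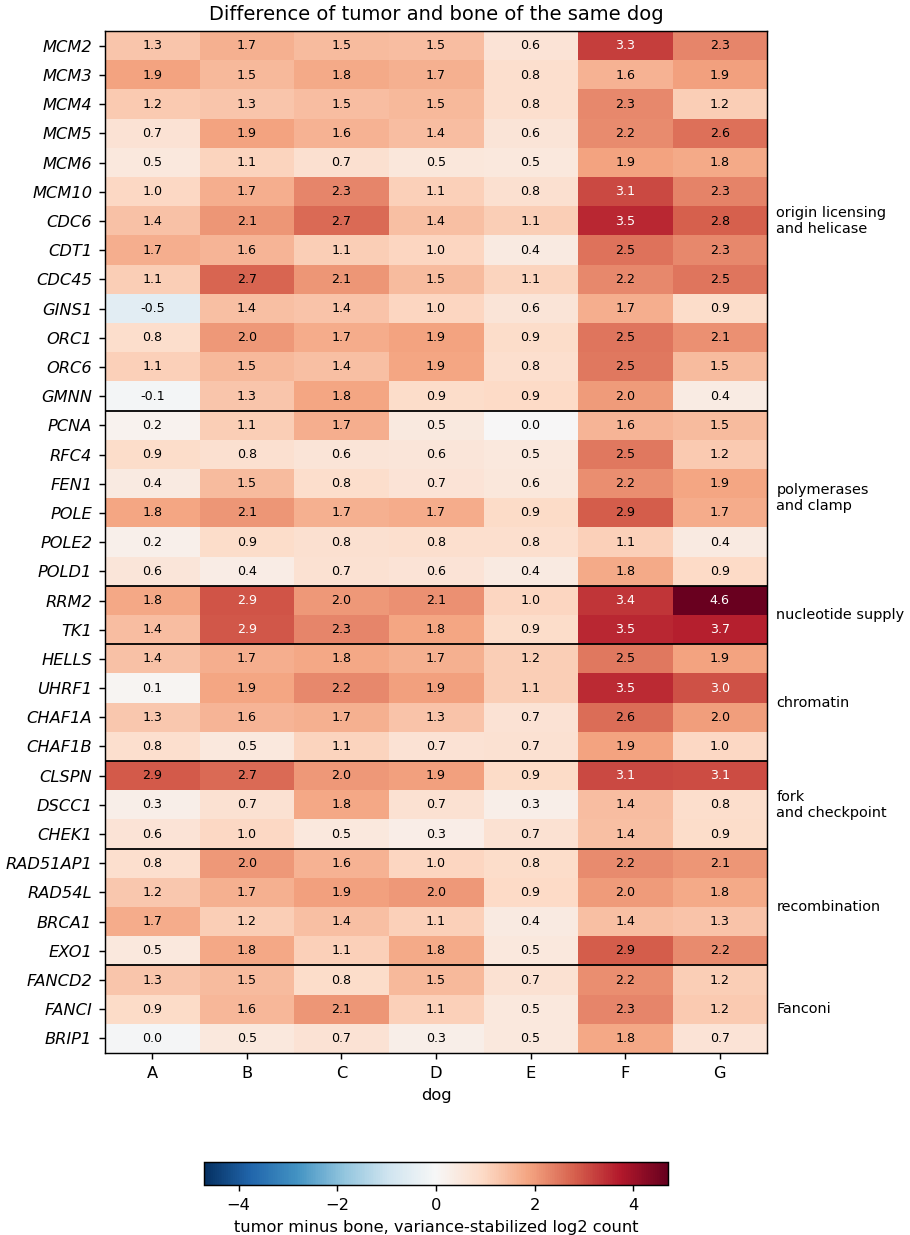
Difference of tumor and bone of the same dog (color and printed value, variance-stabilized log2 counts) for the 35 genes (rows, by function) in dogs A to G (columns). The column of dog F is the darkest and that of dog E the palest, and the values below 0 lie in dog A (GINS1, GMNN, BRIP1). With 1 decimal, BRIP1 in dog A (-0.04) and PCNA in dog E (0.02) both print as 0.0.

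By the same ratio, 11 genes exceeded 2-fold in every dog, among them CDC6 (lowest fold 3.70), HELLS (3.42), CDC45 (3.33), RAD54L (2.96), CLSPN (2.49) and POLE (2.03). The tumor of dog F had the highest level of 30 of the 35 genes. The exceptions were MCM3 and RRM2, highest in dog G, CDT1 in dog A, CDC45 in dog B and RAD54L in dog C. The lowest tumor was that of dog E for 20 genes and that of dog A for 11. The summed normalized counts of the 35 genes ran from 21769 (dog E) to 73210 (dog F) in tumor and from 9368 (dog G) to 12668 (dog E) in bone. Dog E thus had the highest sum in bone and the lowest in tumor, and its libraries were those with the largest share of reads in 1 gene. The part of that gene in the low differences of dog E was not tested.

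Levels varied more between tumors than between bones. The SD on the variance-stabilized scale was between 0.07 (RAD54L) and 0.67 (TK1) in bone, with a median of 0.20, and between 0.33 (POLD1) and 1.0 (UHRF1) in tumor, with a median of 0.62 (n = 7 dogs). The SD was larger in tumor for 34 of the 35 genes. This was also the case for 82.7% of the 16366 genes with a mean normalized count over 10, whose median SD was 0.27 in bone and 0.45 in tumor. Dog F contributed most to the spread of the 35 genes. Without it, the median SD in tumor was 0.46, against 0.41 over the genes with a mean count over 10, and without any other dog it was between 0.58 and 0.67.

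**Figure D4:**
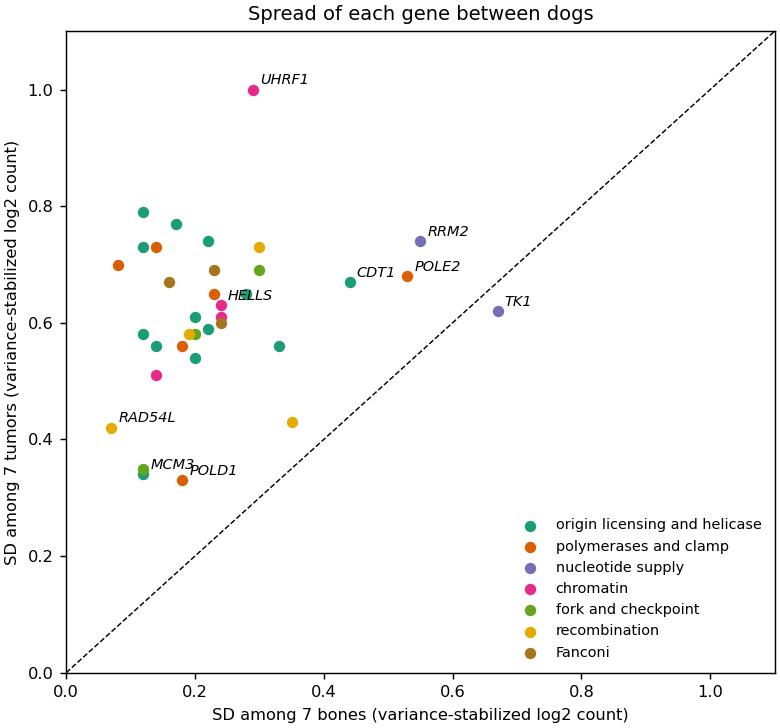
SD of each of the 35 genes among the 7 bones (x axis) and among the 7 tumors (y axis), on the variance-stabilized log2 scale, colored by function; the dashed line marks equal SD. All points but TK1 lie above the line, and UHRF1 has the largest SD among tumors (1.0).

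Much of this spread was shared by the genes. When each tumor was centered on its own median over the 35 genes, the SD between tumors fell for 31 of the 35 genes, and its median went from 0.62 to 0.31. HELLS followed the shared level most closely, with an SD of 0.13 after centering, and CDT1 least, with 0.76. The SD rose on centering for MCM3 (from 0.34 to 0.63), CDT1 (from 0.67 to 0.76), POLD1 (from 0.33 to 0.42) and CHEK1 (from 0.35 to 0.38). The pairing of symbols favored genes that differ between tumor and bone, and its part in the shared level was not tested.

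Against that shared level, 5 of the 245 values of a gene in a tumor departed by more than 1 on the log2 scale. In dog A, CDT1 lay 1.41 and CLSPN 1.35 above the gene's own mean over the 7 centered tumors, and UHRF1 lay at -1.14. In dog G, RRM2 lay 1.23 above its mean. In dog F, MCM3 lay at -1.11: this tumor had 4954 normalized counts of MCM2, 4614 of MCM4, 3874 of MCM5 and 7417 of MCM6, the highest of the 7 tumors for each, but 1585 of MCM3, below the tumors of dogs A, C, D and G. Of these, dog A was the tumor with the lowest RNA integrity. The part of RNA quality in its values was not tested.

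**Figure D5:**
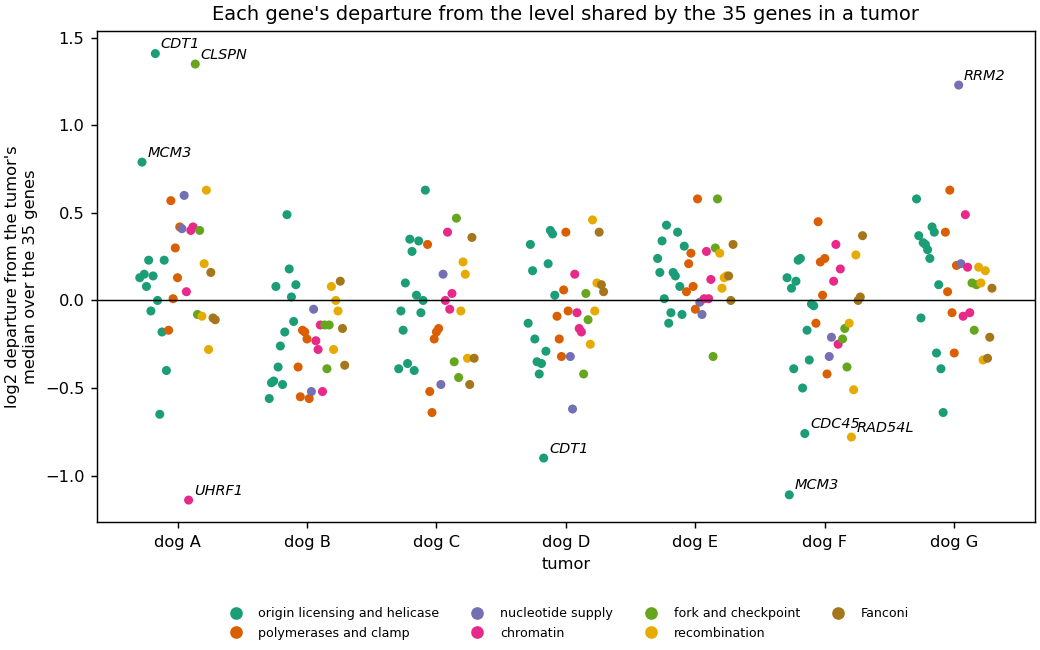
Departure of each of the 35 genes (points, colored by function) in each tumor (x axis) from the median of the 35 genes in that tumor, relative to the gene's own mean over the 7 tumors (y axis, variance-stabilized log2 scale). CDT1 and CLSPN stand highest in dog A and RRM2 in dog G, and UHRF1 in dog A and MCM3 in dog F stand lowest.

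MKI67 and TOP2A, the usual marker genes of proliferation, were set beside the order of the dogs, which they shared only in part. The difference of tumor and bone for MKI67 was smallest in dog E (1.40) and largest in dogs B (3.78) and F (3.74). For TOP2A it was smallest in dog E (1.43) and largest in dogs G (4.09) and F (3.95). In the median over the 35 genes dog A lay below dog D (0.89 against 1.34). Dog A lay above dog D for MKI67 (2.48 against 2.14) and for TOP2A (3.11 against 2.52). On this scale, 29 of the 35 genes differed less than MKI67 in all 7 dogs, and 34 differed less than TOP2A, against 21 and 24 by the ratio of normalized counts. The fitted log2 fold changes were 3.02 for MKI67 and 3.25 for TOP2A, and those of CLSPN (3.31) and CDC6 (3.29) were larger. Since the stabilized scale understates genes with few reads, the order of these genes against MKI67 depends on the scale.

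Beyond the list of 50, 128 other genes of replication and DNA repair were searched, and 20 had a paired symbol. Of the 20, 13 were called higher, 0 were called lower, and all were higher in the tumor of 7 of 7 dogs; the shares over all genes tested were 1.35% called higher and 4.65% higher in all 7 dogs, and 15.6% of the genes with a paired symbol were called higher. Without dog B, 8 of the 20 were called. Large log2 fold changes were those of FANCM (2.84), the Fanconi translocase, RECQL4 (2.82), a helicase of origin firing, DNA2 (2.73), a nuclease of resection, ASF1B (2.50), a histone chaperone, and UBE2T (2.50), the ubiquitin-conjugating enzyme of the Fanconi pathway. Those of TICRR (1.87), DCK (1.81), ATAD2 (1.64) and CHTF18 (1.49) were smaller. The 7 genes not called were POLD2, DNMT1, TIMELESS, RAD54B, FANCB, APEX1 and TDG, with log2 fold changes between 0.49 (POLD2) and 1.58 (RAD54B) and FDR values between 0.0525 and 0.0892. APEX1 and TDG were the single paired genes of base excision repair, and no gene of mismatch repair, end joining or nucleotide excision repair was paired. These names came from the same tables, with the same limit.

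Genes that mark other cells of the samples were set beside these values. All 5 osteocyte genes were paired, and their summed normalized counts were 7723 to 134058 in bone and 111 to 13329 in tumor. The 4 paired adipocyte genes of 5 summed to 12172 to 74999 in bone and 1383 to 5797 in tumor. Precursors of blood cells also replicate their DNA, and few of their markers were paired. By the study's account, the bone was depleted of marrow. MPO, 1 of 4 granulocyte genes, had 4.44 to 178 normalized counts in bone and 12.7 to 372 in tumor. MPO was higher in the tumor of every dog but dog A, with a log2 fold change of 2.16 and an FDR of 0.0813. EPB42, 1 of 5 erythroid genes, had 19.2 to 46.8 normalized counts in bone and 5.84 to 18.1 in tumor. EPB42 was lower in the tumor of every dog, with a log2 fold change of -1.32 and an FDR of 0.165. The part of the cell makeup in the differences was not tested.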

How the data were processed

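Poly(A) RNA of 7 bones and 7 tumors was sequenced. Reads were trimmed by the authors using Trimmomatic, mapped to CanFam3.1 with HISAT2 2.2.1 and counted per Ensembl gene with StringTie 1.3.3 (versions per the submitters' processing notes); the deposited values are raw read counts without normalization. Strand and multi-mapping settings are not given in the sources used here, so that overlapping genes and near-identical copies are uncertain. Columns were matched to libraries by name, and groups and dogs were taken from the sample titles.

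The 27655 genes with at least 1 read were tested by the quasi-likelihood F test of edgeR (version 4.0.16 under R 4.3.3, TMM scaling), with dog and tissue as terms, and p-values were adjusted over all genes by the Benjamini-Hochberg procedure (FDR). Standard errors are the absolute log2 fold change over the square root of F. The pairing of bone and tumor comes from the animal they share. Deviations from the tissue mean correlated at 0.0766 to 0.204 within dogs (median 0.123, 16366 genes) and at a median of -0.0304 between dogs. Normalized counts and the variance stabilizing transformation (run with the design) are from DESeq2 1.42.0. Depth limits the precision of genes with few reads. The edgeR fit was tested on simulated data: with a separate dispersion for every gene and low-count genes kept, as they were here, unchanged genes made up more of the calls than the FDR threshold allows, and less than it once low-count genes were removed.

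Genes were given in full where they had the smallest or largest FDR or the highest mean count of their functional group, 1 of the 3 largest or smallest fold changes, no call, or a library that stood apart. The other genes, CDT1, MCM2, MCM5, ORC1 and CHEK1 among them, were chosen to be named with their values in view. The 35 genes and all lists were chosen with earlier results of these data known. Marker genes of osteoblasts (1 of 6 paired), osteoclasts (4 of 5), skeletal muscle (1 of 4) and cartilage (1 of 4) were also listed; their summed normalized counts ran from 5768 to 70204, 65352 to 264418, 0 to 657 and 146 to 779 in bone and from 1023 to 8524, 5724 to 288298, 384 to 6146 and 0 to 1058 in tumor. Macrophage, T cell and endothelial lists had no paired gene. Some genes of the lists are not reported here. A gene table of another assembly (UU_Cfam_GSD_1.0), not of the CanFam3.1 to which the reads were mapped, gave no Ensembl identifiers and was not used. Promoter and protein sequences were not used here. Alternatives covered the normalization, the filter, the test (DESeq2 Wald, limma-voom 3.58.1), the pairing, the thresholds, the scale and each dog.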

Additional observations from a re-analysis of the deposited data

Results flagged for a closer look

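In 105 groups of 7 values (bone, tumor and their difference for each of the 35 genes, variance-stabilized log2 scale), the gap of the farthest dog to its neighbor was divided by the range of the group. By Dixon's criterion, 9 groups had a dog that stood apart, where chance alone gives about 1 in 20 groups. The groups are not independent: each difference is made from the tumor and bone of the same gene, and the genes shared a level in each tumor. The 9 groups are therefore not separate events, and nothing is read from their number against that rate.

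Dog F stood apart as the highest in 7 of them. Its tumor was highest for MCM4 (ratio 0.688, 12.20 against 11.09 in the next tumor), RFC4 (0.671, 11.79 against 10.38) and BRIP1 (0.606, 8.74 against 7.43). Its difference of tumor and bone was highest for RFC4 (0.642, 2.49 against 1.22), POLD1 (0.603, 1.77 against 0.92), CHAF1B (0.613, 1.90 against 1.05) and BRIP1 (0.610, 1.80 against 0.68). Dog E stood apart as the lowest for the difference of MCM3 (0.663, 0.79 against 1.54) and for the level of GMNN in bone (0.777, 7.38 against 7.76).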

How the results depend on the processing

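The 35 genes kept a log2 fold change above 0 under all 12 alternative fits; of 420 results of a gene under an alternative, 356 kept their side of the FDR threshold, 49 no longer passed it and 15 newly passed it. The number called higher was 29, between 30 and 33 with DESeq2 size factors, filterByExpr, the DESeq2 Wald test, limma-voom or no replicate block (32 without the pairing by dog), and between 22 (without dog G) and 28 (without dog A) with each dog left out. Their median log2 fold change of 1.77 stayed between 1.60 and 1.91 without single dogs. GMNN passed in all 5 alternatives with 7 dogs, with an FDR of 0.0459 with DESeq2 size factors and 0.0403 with filterByExpr. Over all genes, the DESeq2 Wald test called 805 higher and 1233 lower, against 372 and 494, and 613 were called higher without the block. Leaving out single dogs gave 224 to 330 higher and 327 to 420 lower, with the fewest without dog B (224 and 327) and 242 higher without dog F. Of the wider list, 8 (without dog B) to 13 genes were called with single dogs left out and 13 to 15 in the alternatives with 7 dogs. The per-dog medians on log2 of CPM plus 0.5 were 0.93 in dog E to 2.66 in dog F, and the 5 large departures were 1.58, 1.52, -1.25, 1.24 and -1.23 (CDT1, CLSPN, UHRF1, RRM2, MCM3), beside a sixth over 1, CDT1 in dog D (-1.05 against -0.90), a comparison added after the data were seen. Genes near a fold change of 2 or with few reads, such as BRIP1, are limited by depth and by 7 dogs. The planned results on the 15 genes without an identifier and on promoter motifs were not run, for lack of a table that pairs them. Counts of genes over 2-fold rest on the scale: with variance-stabilized differences they were 5 in dog E and 16 in dog A, and 4 genes passed in every dog. The ratio of normalized counts was added after the data were seen.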
